A study of Mus musculus with 8 samples.

Results

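The 32 genes described here mark the vessels of the skin or carry signals to them: 18 genes of blood endothelium, 3 of lymphatic endothelium, 5 of pericytes and 6 ligands of vessel growth. Each was represented by the probe set that names this gene alone and had the highest mean over all 8 arrays, and all 32 were found among the 18193 genes measured. Expression was measured on 8 oligonucleotide arrays of the dorsal skin of females of the hairless strain Hos:HR-1, aged 21 weeks, 4 mice on each of 2 diets. The collagen group ate for 12 weeks, from 9 weeks of age, a mixture of 2.0 g of fish-scale collagen hydrolysate (collagen cut into peptides) and 100 g of the control diet, and the control group ate AIN-93G, a purified rodent diet, alone. The labels call the arrays of a diet biological replicates, and the study held 16 mice, 8 on each diet. The comparison asks whether the vessel genes of the skin differ between the diets. Whole skin was used, so fewer vessel cells and less RNA per cell cannot be told apart.

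Blood vessels are lined by endothelial cells, held together by VE-cadherin, PECAM-1 and claudin-5, and wrapped by pericytes, which contract, stabilise the wall and depend on PDGF-B released by the endothelium. VEGF-A acts on endothelial cells through VEGFR2, VEGF-C directs lymphatic growth through VEGFR3, and angiopoietins act through the receptor TIE2. In skin these vessels run through the dermis and around hair follicles, and they supply an epidermis that has no vessels of its own.

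The deposited values are log2 levels that differ very little between arrays. The standard deviation (SD) across arrays had a median of 8.66e-06 over all probe sets, and such differences cannot be read as fold changes of RNA. An array's value is therefore given as its distance from the 8-array mean of that gene, divided by the gene's pooled SD within diets, and a diet difference is collagen minus control in the same units. The limma test was run on 12735 genes, which leaves out the lowest 30% by mean level, with p-values adjusted over all of them by the Benjamini-Hochberg method and a threshold of 0.05. Of the members, 30 passed this level filter, while *Tie1* and *Prox1* lay below it and take their values from the same fit without the filter. Keratinocyte markers stood at 10.17 to 14.07 on the deposited log2 scale (7 genes, a check of the labelled tissue) and the members at 6.02 to 9.89; probe sets differ in affinity, so these levels set no order between genes. An exact permutation test of 4 arrays against 4 could not give a p below 0.0286.

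Promoter sequence was found for 19 of the 32 members among the RefSeq windows of build GRCm38.p6, and the 250 bases before the start site are shown for 4 blood endothelial genes, as receptors and surface proteins of the vessel lining whose windows hold a match. Capitals mark matches to CAGGAAG or CCGGAA, written for factors of the ETS family that includes the member *Erg*, and to AACAAT, written for SOX factors such as the members *Sox17* and *Sox18*, on either strand. *Emcn* is on the plus strand at chr3:137340828-137341077, *Tek* on the plus strand at chr4:94739039-94739288, *Robo4* on the plus strand at chr9:37401722-37401971 and *Kdr* on the minus strand at chr5:75978456-75978705.
Emcn: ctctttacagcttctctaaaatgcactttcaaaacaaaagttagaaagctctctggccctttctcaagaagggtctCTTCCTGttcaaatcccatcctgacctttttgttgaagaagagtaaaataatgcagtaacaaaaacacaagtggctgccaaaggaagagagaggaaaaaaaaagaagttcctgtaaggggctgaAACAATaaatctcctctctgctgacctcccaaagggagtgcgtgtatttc
Tek: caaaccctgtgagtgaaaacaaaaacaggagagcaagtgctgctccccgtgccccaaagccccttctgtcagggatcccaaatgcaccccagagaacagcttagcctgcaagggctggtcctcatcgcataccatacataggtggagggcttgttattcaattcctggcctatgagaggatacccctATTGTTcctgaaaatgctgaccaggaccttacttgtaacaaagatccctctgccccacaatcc
Robo4: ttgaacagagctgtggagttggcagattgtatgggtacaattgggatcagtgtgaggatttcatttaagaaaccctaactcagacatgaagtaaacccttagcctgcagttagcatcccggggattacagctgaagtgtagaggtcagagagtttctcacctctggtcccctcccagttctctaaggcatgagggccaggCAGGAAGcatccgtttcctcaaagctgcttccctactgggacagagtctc
Kdr: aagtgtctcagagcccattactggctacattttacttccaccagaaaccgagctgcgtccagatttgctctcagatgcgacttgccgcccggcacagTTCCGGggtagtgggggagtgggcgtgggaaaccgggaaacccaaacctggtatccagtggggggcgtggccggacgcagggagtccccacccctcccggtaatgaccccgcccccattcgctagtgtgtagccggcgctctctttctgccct
The 19 members had 25 windows, since some have several start sites. CAGGAAG was in 5 of the 25, in *Egfl7*, *Emcn*, *Erg* and *Robo4*, against 10.8% of all 32851 windows. CCGGAA was in 1, that of *Kdr*, against 12% of all windows, and AACAAT was in 3, of *Emcn*, *Erg* and *Tek*, against 9.42%. ACGTG, the core of the motif of hypoxia-inducible factors, was in 1 window of *Vegfa* against 16.6% of all windows. That window, on the minus strand at chr17:46025164-46025413, lies downstream of the other *Vegfa* window, at chr17:46032378-46032627, which had no such match. The match is therefore inside the gene and not before its upstream start site. AGATAA, written for GATA factors, was in 3 windows, of *Erg*, *Rgs5* and *Vegfa*, against 9.99%. A match is a description of these letters and not a bound site.

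None of the vessel genes differed between the diets past the threshold. Of the 30 members tested, 0 had an adjusted p below 0.05 in limma, 1 (*Sox18*) had an unadjusted p below 0.05, and 0 had groups that did not overlap. Over all genes tested, 0% passed the adjusted threshold, 5.36% had an unadjusted p below 0.05 (4.15% lower and 1.21% higher on the collagen diet) and 3.31% had groups that did not overlap. Among all 32 members 19 were higher and 13 lower on the collagen diet, with a median difference of 0.10 SD, against 45.5% higher and 54.5% lower and a median of -0.08 SD over all genes tested. With quantile normalization the members' median was -0.07 SD, and with the arrays centred on their medians it was -0.13 SD. With 1 array left out in turn it lay between -0.15 SD (without collagen replicate 3) and 0.33 SD (without collagen replicate 2), and it was also below 0 without collagen replicate 4 (-0.0213 SD) and without control replicate 1 (-0.12 SD). The middle range of all genes, from the 25th to the 75th percentile, ran from -0.62 to 0.38 SD and held 15 of the 32 members. Only *Sox18* and *Emcn* lay outside the range from the 5th to the 95th percentile, which was -1.60 to 1.09 SD.

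**Figure D1:**
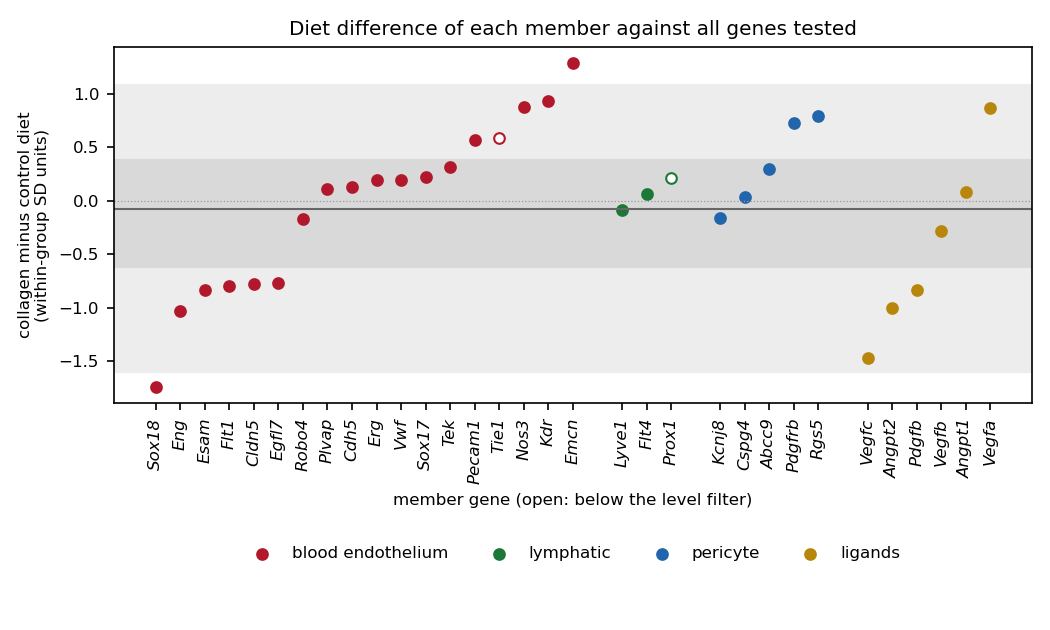
Difference between the diets (collagen minus control, in within-group SD units) for each of the 32 members, by class, with open circles for the 2 members below the level filter. The dark and light bands hold the 25th to 75th and the 5th to 95th percentile of all 12735 genes tested and the line is their median of -0.08; *Sox18* at -1.74 and *Emcn* at 1.29 are the members outside the light band.

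The transcription factors of the endothelium were spread on both sides. *Sox18* (probe set 1449135_at), which drives vessel and lymphatic development, had the largest difference of the 32. Its deviations were -1.62, -2.21, 0.29 and 0.06 SD on the 4 collagen-diet arrays, against 0.15, 1.26, 1.64 and 0.43 SD on the 4 control-diet arrays. Collagen replicates 1 and 2 were the lowest arrays, collagen replicate 3 lay above control replicate 1, and so the groups overlapped. In deposited log2 units the difference was -0.000118 ± 4.78e-05 (SE, 4 arrays per diet), which is -1.74 SD. Its unadjusted p was 0.0381 and its adjusted p 0.914 in limma. The *Sox18* difference was 0.04 SD after quantile normalization, -1.035 SD after median centring and between -2.318 and -1.455 SD with 1 array left out in turn. *Sox17* (1421657_a_at), a related factor of arterial endothelium, differed by 0.22 SD and *Erg* (1440244_at), an ETS factor that maintains endothelial identity, by 0.19 SD. *Sox7* (1416564_at), the remaining member of the SOX subgroup of *Sox17* and *Sox18* and not among the 32, had -0.72, -1.99, -0.51 and -1.02 SD on the collagen diet, against 2.80, -0.04, 1.11 and 0.38 SD on the control diet. The groups did not overlap for *Sox7*, every collagen-diet array being the lower, and limma gave its difference of -2.13 SD an adjusted p of 0.82.

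The receptors of the vessel lining did not share a direction. *Kdr* (1449379_at), which encodes VEGFR2, had 0.78, 0.68, 0.21 and 0.20 SD on the collagen diet, against -1.08, -2.12, 0.84 and 0.49 SD on the control diet. The 4 collagen-diet arrays lay close together, above control replicates 1 and 2 and below control replicate 3, and limma gave the difference of 0.93 SD an adjusted p of 0.999. *Flt1* (1451756_at), which encodes VEGFR1, a receptor that also traps VEGF-A, differed by -0.80 SD. *Tek* (1418788_at), which encodes TIE2, had 0.14, -1.29, 1.15 and 0.63 SD on the collagen diet, against -0.57, -0.84, 1.24 and -0.47 SD on the control diet. *Tie1* (1416238_at), its partner receptor, had -0.22, -0.76, 1.51 and 0.64 SD on the collagen diet, against -0.90, -1.27, 0.03 and 0.97 SD on the control diet. In both genes collagen replicates 3 and 4 were above the gene's mean and collagen replicate 2 below it, and the differences were 0.32 and 0.59 SD. *Robo4* (1426206_at), which stabilises the endothelial barrier, differed by -0.17 SD.

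*Eng* (1417271_a_at), which encodes endoglin, a co-receptor for BMP ligands on endothelium, stood lower on 3 collagen-diet arrays. It had -1.07, -1.51, 1.15 and -0.63 SD on the collagen diet, against -0.41, 0.19, 0.81 and 1.46 SD on the control diet. Collagen replicate 3 alone lay among the control arrays, and the difference was -1.03 SD with all arrays and -2.32 SD without that replicate, with adjusted p of 0.999 and 0.961 in limma. It shrank to -0.0718 SD after quantile normalization, to -0.23 SD after median centring and to -0.21 SD with the mean of both probe sets. Of 6 genes of the endoglin pathway outside the 32 (*Acvrl1*, *Bmpr2*, *Id1*, *Id3*, *Smad6* and *Smad7*), 5 stood lower and 1 higher on the collagen diet (median -0.89 SD), and 0 had an unadjusted p below 0.05. The smallest p in that list were those of *Smad6* (1422771_at), an inhibitor of BMP signalling, at -1.38 SD and *Id1* (1425895_a_at), a BMP target, at -1.09 SD, with adjusted p of 0.992 and 0.999 in limma. *Bmpr2* (1434310_at), a BMP receptor named after its values were seen, was the 1 gene of the list whose groups did not overlap, with -2.79, -2.0, -3.23 and -1.93 SD on the collagen diet, against 1.80, 4.25, 1.38 and 2.52 SD on the control diet. Its SD over the 8 arrays was 1.21e-06 in deposited log2 units, and limma, which moderates small spreads, gave its difference of -4.98 SD an unadjusted p of 0.416 and an adjusted p of 0.999. The mean deviation of the 6 genes was -1.49 to -0.26 SD on the collagen-diet arrays and -0.05 to 1.28 SD on the control-diet arrays. *Bmpr2* enters that mean with deviations of -3.23 to 4.25 SD, and the mean without it was not computed. The gap between the diets in that mean therefore cannot be read as a shift of the whole pathway. *Id1* stood at 1.06 SD on collagen replicate 1, against -0.24 SD on control replicate 3. *Smad6* stood at -0.30 SD on collagen replicate 1, against -1.24 SD on control replicate 1. After quantile normalization only 5 genes gave a value, so the mean covers another set, with collagen replicate 1 at 1.17 SD and overlapping groups.

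Genes of endothelial junctions and surface proteins also overlapped between the diets. *Pecam1* (1421287_a_at), the adhesion molecule CD31, had -0.06, -1.08, 1.34 and 0.93 SD on the collagen diet, against -1.58, -0.05, -0.06 and 0.56 SD on the control diet. *Cdh5* (1433956_at), VE-cadherin of the adherens junction, had -1.13, -0.70, 1.14 and 0.95 SD on the collagen diet, against -0.89, -0.09, -0.35 and 1.07 SD on the control diet. Collagen replicates 3 and 4 and control replicate 4 stood above the mean in both genes, and the diet differences were 0.57 and 0.13 SD. *Cldn5* (1417839_at), the claudin of endothelial tight junctions, differed by -0.78 SD and *Esam* (1460356_at), an adhesion molecule of the same contacts, by -0.83 SD. *Emcn* (1425582_a_at), endomucin, a sialomucin of capillaries and veins, had 2.32, 0.88, -0.76 and 0.15 SD on the collagen diet, against -1.45, -0.20, -0.55 and -0.38 SD on the control diet. Collagen replicates 1, 2 and 4 lay above all control arrays and collagen replicate 3 below 3 of them. Limma gave the difference of 1.29 SD an adjusted p of 0.999, and after quantile normalization it was -0.04 SD.

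Secreted and functional products of the endothelium followed. *Vwf* (1435386_at), von Willebrand factor of haemostasis, had 0.27, -1.64, 1.77 and -0.02 SD on the collagen diet, against -0.38, -0.15, 0.02 and 0.11 SD on the control diet. The control arrays lay close together and collagen replicates 2 and 3 were the lowest and the highest of all 8. *Plvap* (1418090_at), which forms the diaphragms of fenestrated capillaries, differed by 0.11 SD and *Egfl7* (1451427_a_at), a secreted factor of vessel tube formation, by -0.77 SD. *Nos3* (1422622_at), endothelial nitric oxide synthase, had -0.48, 1.25, 0.02 and 0.96 SD on the collagen diet, against -1.21, -1.18, -0.63 and 1.26 SD on the control diet. Control replicates 1 to 3 lay below all collagen arrays and control replicate 4 above them. The difference of 0.88 SD had an unadjusted p of 0.239, and without control replicate 4 it was 2.20 SD with an unadjusted p of 0.0265 and an adjusted p of 0.839 in limma.

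**Figure D2:**
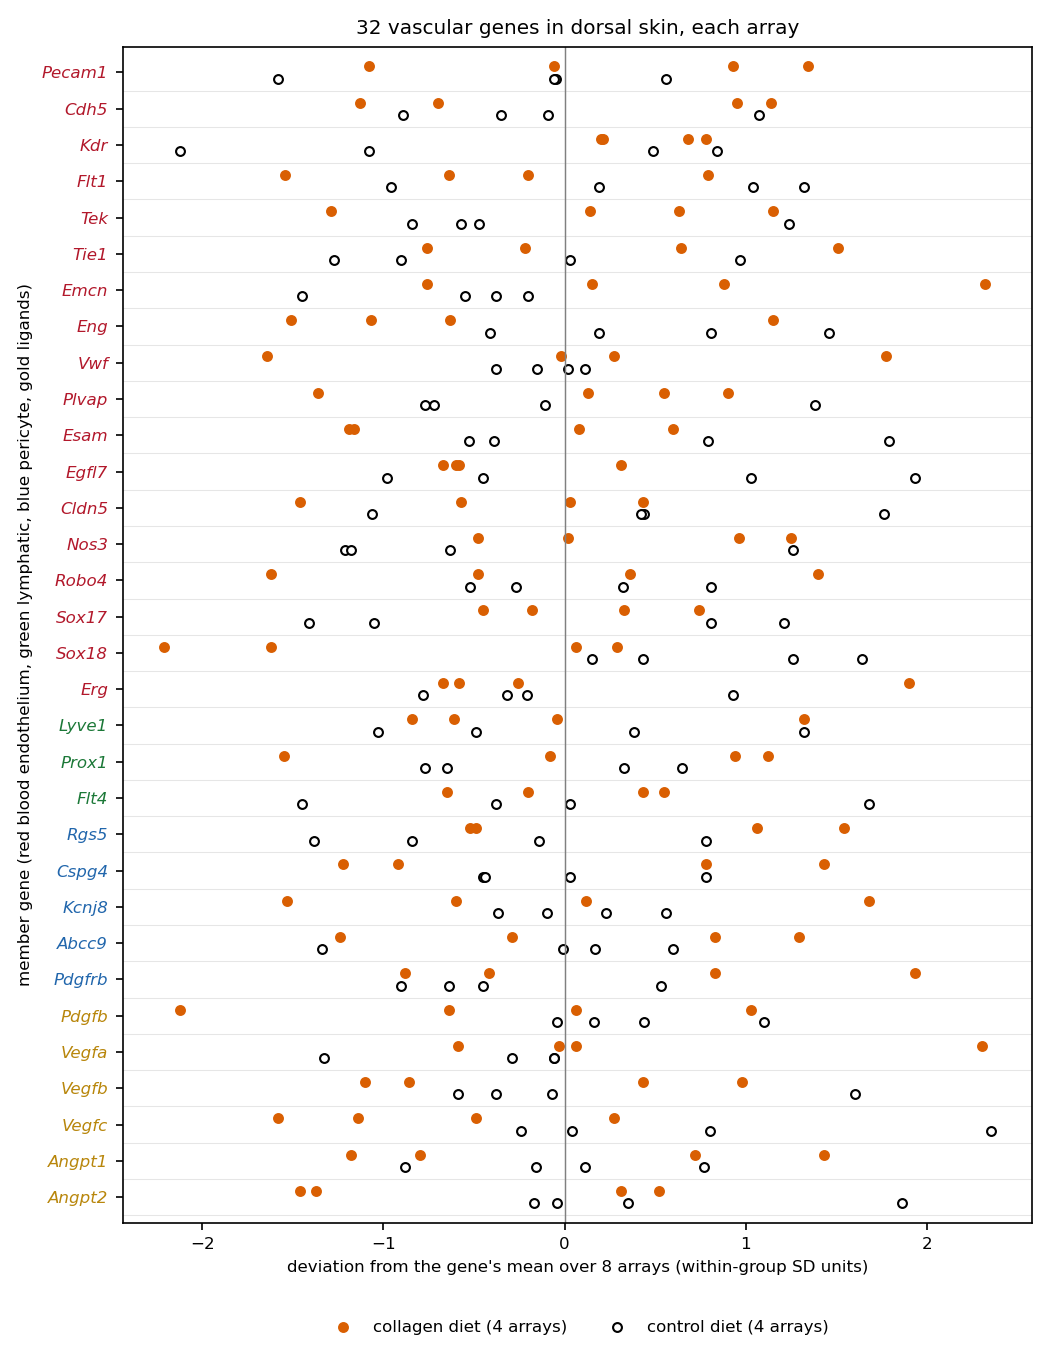
Deviation of each array from the gene's mean over 8 arrays, in within-group SD units, for the 32 members, with filled circles for the 4 collagen-diet arrays and open circles for the 4 control-diet arrays. The 2 sets of circles overlap in every row, including that of *Sox18*, where collagen replicate 3 at 0.29 lies above control replicate 1 at 0.15.

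The lymphatic markers differed by -0.09 to 0.21 SD, with a median of 0.06 SD as deposited and -0.14 SD after median centring. *Lyve1* (1429379_at), a hyaluronan receptor of lymphatic endothelium that some macrophages also carry, had -0.04, -0.61, -0.84 and 1.32 SD on the collagen diet, against -1.03, -0.49, 0.38 and 1.32 SD on the control diet. *Flt4* (1444052_at), which encodes VEGFR3, had 0.43, -0.20, 0.55 and -0.65 SD on the collagen diet, against -1.45, -0.38, 0.03 and 1.68 SD on the control diet. *Prox1* (1437894_at), the factor that sets lymphatic identity, had -0.08, 0.94, 1.12 and -1.55 SD on the collagen diet, against 0.65, -0.77, -0.65 and 0.33 SD on the control diet. Control replicate 4 was above the mean in all 3 genes, and collagen replicate 4 was the highest array for *Lyve1*, where it equals control replicate 4 after rounding, and the lowest for *Prox1*. Of 7 further lymphatic genes found, 6 were tested, 5 of them higher and 1 lower (median 0.48 SD), and 0 had an unadjusted p below 0.05. Macrophage markers, 6 genes, had a mean deviation of -0.55 to 0.56 SD on the collagen-diet arrays and -1.29 to 0.74 SD on the control-diet arrays. Of these, 2 of 6 had an unadjusted p below 0.05 in limma, against 5.36% of all genes tested, and they went opposite ways. *Lyz2* (1423547_at) differed by 2.15 SD, with groups that did not overlap, and *Cd163* (1419144_at) by -1.62 SD. Their adjusted p were 0.82 and 0.93 in limma. The part of macrophages in the *Lyve1* values was not tested.

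Of the 5 pericyte genes 4 stood higher and 1 lower on the collagen diet, each with an adjusted p of 0.999 in limma. Their median difference of 0.29 SD turned to -0.50 SD after quantile normalization, to -0.0957 SD without collagen replicate 3 and to -0.0988 SD without control replicate 4. It was 0.21 SD after median centring. With any other 1 array left out it lay between 0.31 SD (without control replicate 1) and 0.91 SD (without collagen replicate 1). *Rgs5* (1417466_at), a regulator of G-protein signalling that marks pericytes, had -0.49, -0.52, 1.54 and 1.06 SD on the collagen diet, against -0.14, 0.78, -0.84 and -1.38 SD on the control diet. *Pdgfrb* (1436970_a_at), the receptor through which PDGF-B holds pericytes at the vessel, had -0.88, -0.42, 1.93 and 0.83 SD on the collagen diet, against 0.53, -0.64, -0.90 and -0.45 SD on the control diet. Collagen replicates 3 and 4 were the highest arrays of both genes, collagen replicates 1 and 2 lay among the control arrays, and the diet differences were 0.79 and 0.73 SD. *Cspg4* (1450944_at), the proteoglycan NG2, differed by 0.03 SD. *Kcnj8* and *Abcc9* encode the pore and the regulatory subunit of one potassium channel of mural cells. *Kcnj8* (1418142_at) had 1.68, -1.53, 0.12 and -0.60 SD on the collagen diet, against -0.37, 0.56, -0.10 and 0.23 SD on the control diet. *Abcc9* (1435752_s_at) had -1.24, -0.29, 1.29 and 0.83 SD on the collagen diet, against -0.01, 0.60, 0.17 and -1.34 SD on the control diet. The array orders of the channel's subunits were unlike: collagen replicate 1 was the highest for *Kcnj8* and the second lowest for *Abcc9*.

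*Abcc9* also varied far more than the other members. Its SD over the 8 arrays was 0.00307 on the deposited scale, above that of 98.5% of the 18193 genes, and the next member was *Vegfb* with 0.000369, above 95.3%. The median SD of the 32 members was 4.76e-05, against 1.18e-05 over all genes, and the smallest was 1.38e-06 for *Sox17*. All 3 probe sets of *Abcc9* were lowest on collagen replicate 1 and control replicate 4 and highest on collagen replicate 3. The 12 skeletal muscle markers, none of them at a low level (8.85 to 12.73), had mean deviations of -1.34, 0.25, 0.85 and 0.82 SD on the collagen-diet arrays, against 0.29, 0.18, 0.35 and -1.41 SD on the control-diet arrays. Collagen replicate 1 and control replicate 4 were thus the low arrays in both. *Abcc9* is known to be expressed in muscle as well as in pericytes, and the part of muscle in its values was not tested. Without these 2 arrays the diet difference of the 5 pericyte genes had a median of 0.58 SD.

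**Figure D3:**
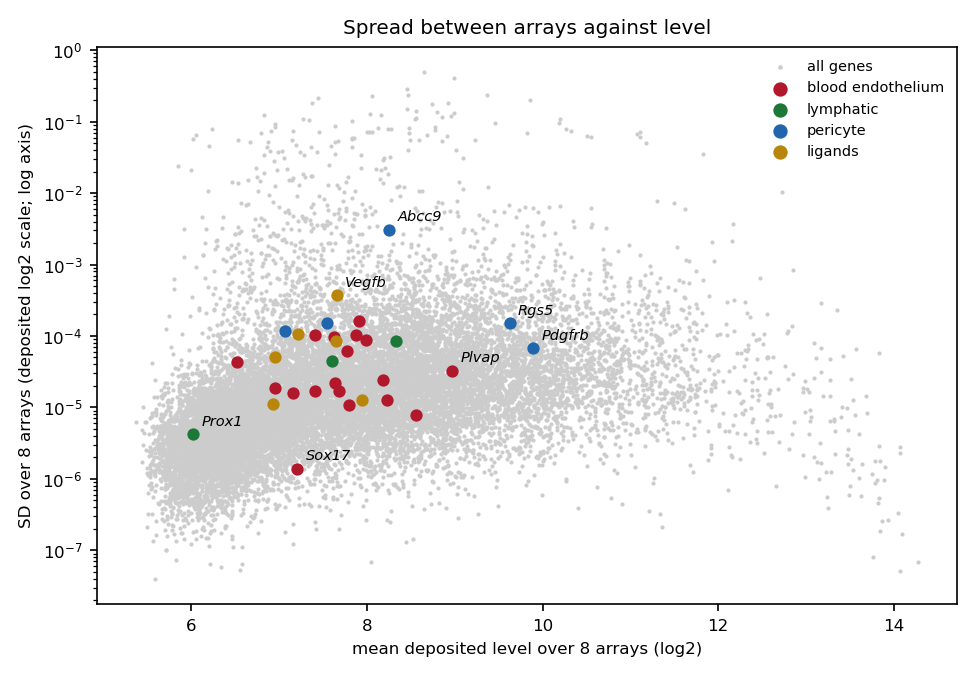
SD over the 8 arrays (deposited log2 scale, on a log axis) against the mean deposited level for all 18193 genes in grey and the 32 members in colour. *Abcc9*, at 0.00307, and *Vegfb*, at 0.000369, lie above the other members, and *Sox17*, at 1.38e-06, lies below them.

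Of the 6 ligands 4 stood lower on the collagen diet, and their median difference was -0.56 SD as deposited and -0.11 SD after quantile normalization. It was -0.22 SD after median centring, -0.18 SD without collagen replicate 1, -0.16 SD without control replicate 2 and -0.37 SD without collagen replicate 2 or with the mean of all probe sets. The median grew to -0.82 SD without collagen replicate 3 and to -0.71 SD without control replicate 1. It was -0.58 SD without collagen replicate 4 or control replicate 3 and -0.59 SD without control replicate 4. *Vegfc* (1419417_at), the lymphatic growth factor, had 0.27, -1.58, -1.14 and -0.49 SD on the collagen diet, against 0.04, 0.80, -0.24 and 2.35 SD on the control diet. Collagen replicates 2 to 4 lay below all control arrays, collagen replicate 1 lay above control replicates 1 and 3, and control replicate 4 stood highest. The difference was -1.47 SD with an unadjusted p of 0.0681 and an adjusted p of 0.972 in limma. *Angpt2* (1448831_at), a TIE2 ligand that loosens vessels, had -1.46, -1.37, 0.31 and 0.52 SD on the collagen diet, against -0.17, 1.86, -0.04 and 0.35 SD on the control diet, a difference of -1.0 SD. *Angpt1* (1439066_at), the TIE2 ligand that stabilises vessels, differed by 0.08 SD. *Pdgfb* (1450414_at), the PDGF chain that recruits pericytes, had -2.12, 1.03, 0.06 and -0.64 SD on the collagen diet, against -0.04, 1.10, 0.16 and 0.44 SD on the control diet, and its difference of -0.83 SD came with overlapping groups. *Vegfb* (1451803_a_at) differed by -0.28 SD. *Vegfa* (1420909_at), the main growth factor of blood vessels and a target of hypoxia-inducible factors, had -0.03, 0.06, 2.30 and -0.59 SD on the collagen diet, against -0.29, -1.33, -0.06 and -0.06 SD on the control diet. Collagen replicate 3 was far above the other arrays for *Vegfa*, and the difference was 0.87 SD. Of 15 genes of the hypoxia response, 14 were tested, 9 of them higher and 5 lower (median 0.31 SD), and 0 had an unadjusted p below 0.05. The smallest p in that list belonged to genes that stood lower on the collagen diet. They were *Arnt* (1419996_s_at) at -1.58 SD and *Epas1* (1435436_at) at -1.24 SD, with adjusted p of 0.965 and 0.999 in limma.

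Further probe sets existed for 18 of the 32 members. Of 27 further probe sets, 16 (59.3%) went the same way as the one used, against 57.6% of 14723 over all genes tested. In *Egfl7*, *Rgs5*, *Vegfc*, *Abcc9*, *Pdgfrb*, *Flt4* and *Sox17* every probe set had the same sign. The 4 probe sets of *Egfl7* lay between -1.47 and -0.55 SD, the 3 of *Vegfc* between -1.47 and -0.47 SD and the 4 of *Rgs5* between 0.32 and 1.54 SD. Agreement in sign did not mean agreement by array for *Rgs5*: 1417466_at and 1420942_s_at were highest on collagen replicate 3, at 1.54 and 1.66 SD, and 1420941_at and 1420940_x_at on collagen replicate 1, at 1.94 and 1.72 SD. *Flt1* and *Prox1* had further probe sets of both signs. For *Flt1*, 1419300_at gave 0.38 SD and the others -0.26 and -0.17 SD, where the one used gave -0.80 SD. The mean of all probe sets of *Flt1* differed by -0.0471 SD. For *Prox1* the further ones gave 0.68 and -0.45 SD, where the one used gave 0.21 SD. *Cdh5*, *Eng*, *Pdgfb*, *Vegfa*, *Angpt1*, *Angpt2*, *Erg*, *Lyve1* and *Cspg4* had a second probe set of opposite sign. That of *Cdh5* (1422047_at) gave -1.31 SD where the one used gave 0.13 SD, and that of *Pdgfb* (1450413_at) gave 1.29 SD where the one used gave -0.83 SD.

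**Figure D4:**
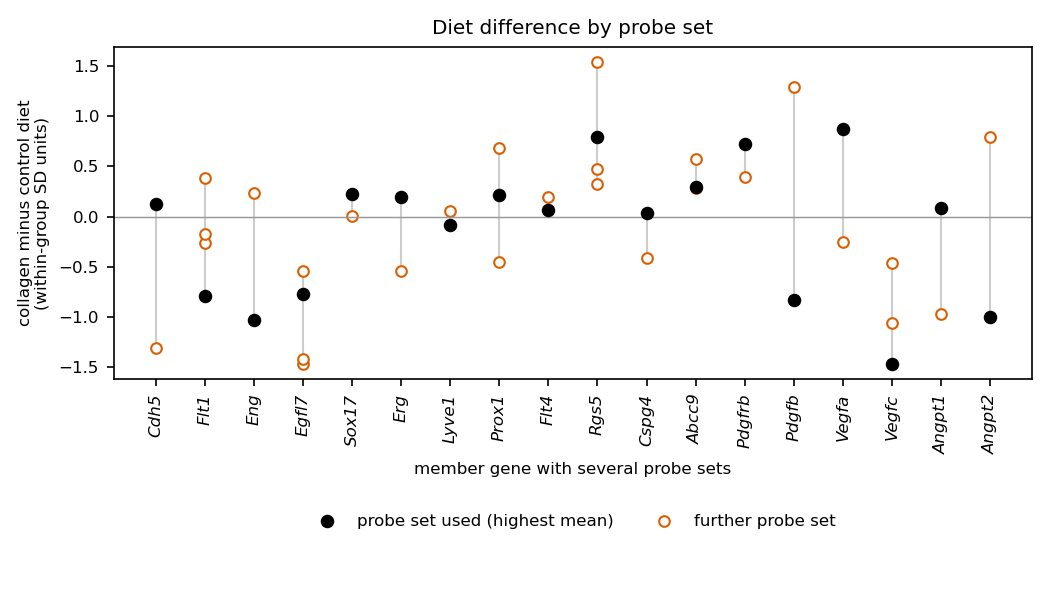
Difference between the diets (collagen minus control, in within-group SD units) for every probe set of the 18 members that have several, with filled circles for the probe set used and open circles for the others. The 4 probe sets of *Egfl7* and the 3 of *Vegfc* all lie below 0 and the 4 of *Rgs5* above it, while those of *Pdgfb* lie at -0.83 and 1.29.

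Blood endothelial genes had mean deviations of -0.23, -0.71, 0.51 and 0.35 SD on the collagen-diet arrays, against -0.75, -0.22, 0.31 and 0.74 SD on the control-diet arrays. On the collagen diet 14 of the 18 were above their own mean in replicate 3, where 43.9% of all genes tested were, and 14 in replicate 4, where 50.1% of all genes were, and 14 were below it in replicate 2, against 57% of all genes. On the control diet 15 were above in replicate 4, against 54.8% of all genes, and 16 below in replicate 1, against 53.4% of all genes. These shares were not tested. Control replicate 3 was split, with 11 above and 7 below. Lymphatic genes had 0.10, 0.04, 0.27 and -0.29 SD on the collagen diet, against -0.61, -0.55, -0.08 and 1.11 SD on the control diet. Pericyte genes had -0.37, -0.40, 1.26 and 0.18 SD on the collagen diet, against -0.09, 0.42, -0.33 and -0.67 SD on the control diet, and all 5 were above their mean on collagen replicate 3. Ligands had -0.94, -0.59, 0.54 and 0.11 SD on the collagen diet, against -0.20, 0.80, -0.03 and 0.30 SD on the control diet. On the deposited values control replicate 4 was thus the highest array for the blood endothelial and lymphatic classes and the lowest for pericytes. A list of 23 further endothelial genes did not share this, with 0.06 SD on control replicate 4 and its highest value, 0.58 SD, on collagen replicate 3. On control replicate 4 the 7 further lymphatic genes were highest (0.76 SD) and the 10 further mural cell genes lowest (-0.38 SD). Fibroblast markers (6 genes) had 1.46 SD on collagen replicate 3, and skeletal muscle markers were lowest on control replicate 4 (-1.41 SD), and the part of either tissue in these class values was not tested. The array order depended on scaling: after quantile normalization the blood endothelial class stood at 1.47 SD on collagen replicate 1 and 1.22 SD on control replicate 4, with the other arrays between -0.72 and -0.15 SD. This was not particular to endothelium. On the same arrays smooth muscle markers stood at 1.28 and 1.06 SD and keratinocyte markers (3 genes with a value) at 1.36 and 1.36 SD. Skeletal muscle markers were low there, at -1.35 and -1.41 SD.

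**Figure D5:**
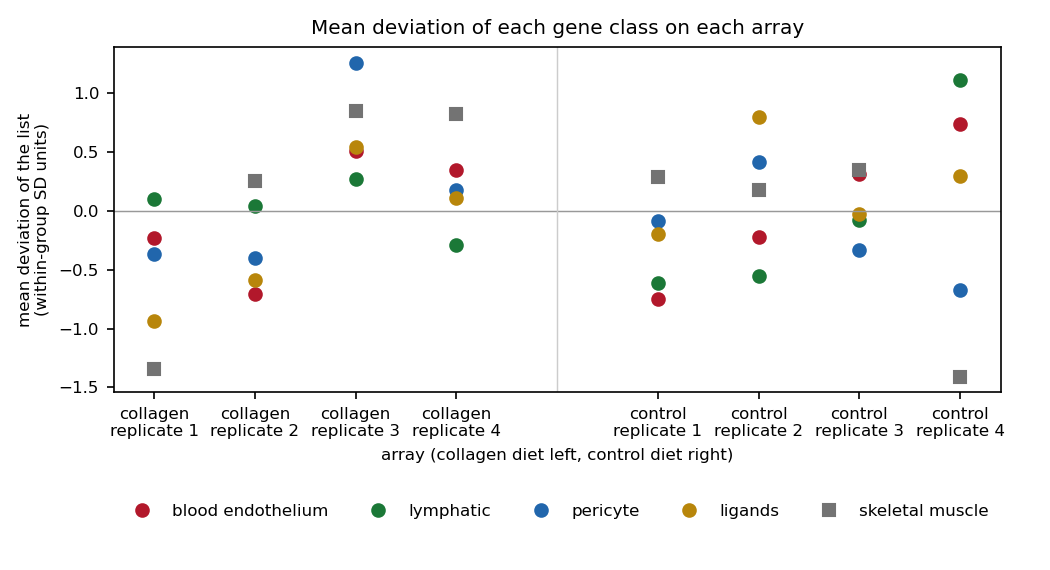
Mean deviation of each gene class on each array, in within-group SD units, with the collagen-diet arrays left and the control-diet arrays right, and skeletal muscle markers as squares. On the deposited values, blood endothelial and lymphatic genes stand at 0.74 and 1.11 SD on control replicate 4, where pericyte genes are at -0.67 SD and muscle markers at -1.41 SD. Pericyte genes are at 0.04 SD on that array after quantile normalization and at 0.47 SD after median centring.

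Ligand and receptor pairs and partners in one cell type were compared over the 8 arrays in 12 pairs, with exact permutation tests and adjustment over the 12. *Pecam1* and *Cdh5* were the most alike, with Pearson's r of 0.83 (exact p = 0.00853, adjusted p = 0.102) and Spearman's rho of 0.90 (exact p = 0.00456, adjusted p = 0.0548). The coefficient r was 0.77 without control replicate 1 and collagen replicate 3, and 0.85 with the diet means removed. With 4 arrays a diet is too small for an r of its own. *Rgs5* and *Pdgfrb* had r of 0.74 (exact p = 0.0436, adjusted p = 0.262) and rho of 0.67 (exact p = 0.0831, adjusted p = 0.249), and r was 0.14 without collagen replicates 3 and 4, so that relation rested on these arrays. *Tek* and *Tie1* had r of 0.66 (exact p = 0.0846, adjusted p = 0.338) and rho of 0.69 (exact p = 0.0694, adjusted p = 0.249), with r of 0.60 without collagen replicate 3 and control replicate 3. No pair passed after adjustment on the deposited values, while 10 of the 12 did after median centring, which subtracts 1 value from all genes of an array. The other 9 pairs had r between -0.61 for *Lyve1* with *Prox1* (exact p = 0.128, adjusted p = 0.383) and 0.47 for *Vegfc* with *Flt4* (exact p = 0.239, adjusted p = 0.479). Spearman's rho was -0.71 for *Lyve1* with *Prox1* (exact p = 0.0576, adjusted p = 0.249) and 0.19 for *Vegfc* with *Flt4* (exact p = 0.665, adjusted p = 0.886). After median centring r for *Lyve1* with *Prox1* was 0.92.

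Other vessel genes, on lists written for this description, did not pass either. Of 23 further endothelial genes 22 were tested, 14 higher and 8 lower (median 0.24 SD), and *Sox7* was the 1 with an unadjusted p below 0.05. Of 12 genes of arterial and venous identity and Notch signalling 8 were tested, 4 higher and 4 lower, led by *Efnb2* (1419638_at), the ephrin of arteries, at -1.60 SD (adjusted p = 0.955 in limma). Of 10 further mural cell genes found 7 were tested, 3 higher and 4 lower (median -0.19 SD). Of the VEGF and PDGF pathways 11 genes were found and tested, 8 higher and 3 lower (median 0.04 SD), led by *Pdgfa* (1449187_at) at -1.47 SD. Among adhesion molecules of activated endothelium 4 of 5 were tested, 3 of them higher, with *Selp* (1420558_at), P-selectin, at 1.82 SD (adjusted p = 0.902 in limma) and *Icam1* (1424067_at) at -1.16 SD. *Selp* had 1.01, 1.02, 1.78 and -0.16 SD on the collagen diet, against -1.26, -1.29, -1.89 and 0.78 SD on the control diet, so that collagen replicate 4 and control replicate 4 crossed. Genes of endothelin and nitric oxide signalling were split, with 3 higher and 2 lower of 5 tested, and *Ece1* (1455741_a_at) led at -0.76 SD. Of smooth muscle markers, which vessel walls share, 5 of 7 were higher, with *Acta2* (1416454_s_at) at 2.43 SD and *Smtn* (1452469_a_at) at -2.23 SD (adjusted p = 0.831 and 0.809 in limma), and the groups did not overlap for *Acta2*. Red cell markers had 1 higher and 1 lower of 2 tested, and platelet markers 1 higher and 2 lower of 3 tested.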

How the data were processed

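Total RNA from powdered frozen skin was copied from the 3' end and hybridised to 1-colour oligonucleotide arrays, per the labels' protocols. The authors deposited log2 values, made with R 2.7.2 per the submitters' processing notes. Summarization and normalization were not given in the sources used here. Background signals were not used here, and the number of arrays limits the precision. At most 0.0155% of values were equal between any 2 arrays. Of 45101 probe sets 64 are controls. The platform annotation, which may be out of date, gives 1 symbol to 34945, several to 932 and none to 9160. The test was limma 3.58.1 under R 4.3.3, with lmFit and eBayes (intensity trend, two-sided), and was tested on simulated data. A difference in SD units divides the fitted difference by the pooled SD within diets. The 32 members, the gene lists and the pairs were chosen with earlier results of these data known. All members are named, and of each other list up to 2 tested genes with the smallest p. Alternatives covered the level filter, quantile normalization, median centring, the variance model, the mean of all probe sets, the replicate block and leaving out arrays. Same-numbered arrays of the diets correlated at 0.00448, -0.0184, 0.185 and -0.0717 over genes, so the numbers were not taken to pair them.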

Additional observations from a re-analysis of the deposited data

Results flagged for a closer look

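In 72 groups of 4 arrays (32 members and 4 class means on each diet), 2 held an array far from the other 3 by Dixon's criterion, which chance meets in about 1 in 20 groups. *Erg* stood at 1.90 SD on collagen replicate 4, above the other 3 collagen-diet arrays. *Egfl7* stood at 0.31 SD on collagen replicate 4, above the other 3 collagen-diet arrays, which lay between -0.67 and -0.58 SD.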

How the results depend on the processing

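In 17 alternative settings 0 members passed an adjusted p below 0.05, and 8 of the 32 (*Flt1*, *Eng*, *Esam*, *Egfl7*, *Cldn5*, *Pdgfb*, *Vegfc* and *Angpt2*) kept their sign in every one. The level filter, the variance model and the replicate block leave a difference in SD units unchanged, so these settings could not turn a sign. All 8 stood lower on the collagen diet. After quantile normalization and median centring the median difference over all genes tested was -5.03e-05 and -2.39e-05 in log2 units. These 8 thus kept the sign that both normalizations gave the median gene. The array medians spanned 0.000369, against a median SD of 4.76e-05 for the members, so a shift of that size exceeds that median spread. Quantile normalization turned the sign of 16 members: *Pecam1* -0.00813, *Kdr* -0.35, *Tie1* -0.0122, *Emcn* -0.0421, *Vwf* -0.0306, *Plvap* -0.49, *Robo4* 0.00386, *Sox17* -0.24, *Sox18* 0.0389, *Erg* -0.17, *Lyve1* 0.26, *Prox1* -0.40, *Rgs5* -1.16, *Pdgfrb* -0.75, *Vegfa* -0.0757 and *Angpt1* -0.0403 SD. Median centring turned 12: *Cdh5* -0.0915, *Kdr* -0.023, *Emcn* -0.0237, *Vwf* -0.0175, *Plvap* -0.12, *Nos3* -0.0552, *Sox17* -0.15, *Erg* -0.13, *Prox1* -0.14, *Flt4* -0.11, *Cspg4* -0.11 and *Angpt1* -0.16 SD. The mean of all probe sets turned *Cdh5* (-0.0664) and *Cspg4* (-0.17), and leaving out control replicate 4 and collagen replicate 1 together turned *Plvap* (-0.13), *Robo4* (0.18) and *Lyve1* (0.34) and gave *Cdh5* 1.18, *Sox17* 0.94 and *Erg* 0.81 SD. The count of members with an unadjusted p below 0.05, 1 as deposited, was 0 after either normalization, 2 without these 2 arrays and 0 to 3 with 1 array left out. Over all genes it was 682 as deposited, 73 after quantile normalization and 78 after median centring, and the count with an adjusted p below 0.05 was 0 as deposited, 1 with the lowest 50% left out and 0 to 1 with 1 array left out. The mean difference of the pericyte class was 0.34 SD as deposited and -0.38 SD after quantile normalization. Of the 12 pairs 0 passed as deposited and 10 after median centring. Pearson's r changed sign after quantile normalization for *Lyve1* and *Prox1* (0.24), *Sox17* and *Sox18* (0.91) and *Pdgfb* and *Pdgfrb* (0.29), and after median centring for the same pairs (0.92, 0.82 and 0.87) and for *Vegfb* and *Flt1* (-0.32). With 1 array left out in turn, 17 members kept their sign, and the others ranged from -0.24 to 0.58 (*Cdh5*), -0.0095 to 1.00 (*Tek*), -0.54 to 1.23 (*Vwf*), -0.17 to 0.74 (*Plvap*), -0.86 to 0.45 (*Robo4*), -0.25 to 0.77 (*Sox17*), -0.71 to 0.56 (*Erg*), -0.65 to 0.39 (*Lyve1*), -0.13 to 1.12 (*Prox1*), -0.50 to 0.98 (*Flt4*), -0.54 to 0.50 (*Cspg4*), -1.23 to 0.40 (*Kcnj8*), -0.12 to 0.91 (*Abcc9*), -0.70 to 0.26 (*Vegfb*) and -0.46 to 0.55 SD (*Angpt1*). With the replicate number as a block, the count of members at an unadjusted p below 0.05 was 1, that of all genes was 665, and the smallest adjusted p of any member was 0.944 in limma.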
